A study of Drosophila melanogaster with 30 samples.

Results

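Depletion of E2F2 was compared with a nonspecific control in Kc cells, a line grown from Drosophila embryos that carries several features of blood cells (hemocytes). The comparison holds 6 of the 30 arrays of the series: 3 from cells in which E2F2 was depleted by RNA interference (RNAi), and 3 control arrays (Control SK+) from cells given a nonspecific RNA made from a plasmid. The arrays were chosen by their titles. Both groups were grown in suspension, carried the tetraploid female karyotype of the line and were collected after 4 days of RNAi. The other 24 arrays, 3 each, came from knockdowns of both RBFs (RBF1 and RBF2 together), Mip130, Mip120, Mip40, Lin-52, Myb, L(3)MBT and E2F1. Total RNA was measured on Affymetrix fly arrays, which read each transcript with one or more probe sets. Protein levels were not measured, and the cells are 1 established line. Separate cultures are not stated for the 3 arrays of a group. The spread behind each p-value is therefore that of these arrays and may be technical. Because each array reads RNA of a whole culture, fewer cells expressing a gene and less RNA per cell cannot be told apart.

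E2F transcription factors bind DNA as dimers with Dp. Drosophila has an activator, E2F1, which drives genes of DNA replication and the cell cycle, and a repressor, E2F2, which acts together with the retinoblastoma-family proteins RBF1 and RBF2. E2F2, Dp and an RBF are also parts of the dREAM or Myb-MuvB complex, together with Mip130, Mip120, Mip40, Lin-52, a histone-binding subunit and Myb. The complex is known for keeping differentiation-specific and germ line genes silent in cultured fly cells, and for activating mitotic genes through Myb. The comparison asks which transcripts change when the repressor E2F is removed.

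All values are signals on a log2 scale, so a difference of 1 is a 2-fold change, and differences are E2F2 knockdown minus control unless another group is named. Of 13966 probe sets other than the array's control probe sets, 7794 were tested, namely those brighter than the median of the array in 3 or more of the 30 arrays. They covered 6393 genes. A gene was called when its p-value from limma, adjusted by Benjamini-Hochberg over these 7794 probe sets, was below 0.05. Array medians lay between 6.52 and 6.54 after E2F2 knockdown and between 6.55 and 6.57 in control. The interquartile range of the signals was slightly wider after E2F2 knockdown, from 2.26 to 2.28, against 2.17 to 2.22 in control. The median absolute difference per probe set between arrays was 0.058 to 0.063 among the E2F2 arrays, and 0.061 between control replicates 1 and 2. Control replicate 3 stood apart, at 0.104 and 0.102 from the other control arrays. The array also carries 23 control probe sets with no fly target, which averaged from 3.03 to 6.24 after E2F2 knockdown and from 3.16 to 6.22 in control. Signals in that range can be background, and a difference that starts from it is a lower bound. The blood cell identity of the line was visible in both groups: the hemocyte genes Hml (11.51 ± 0.12 after E2F2 knockdown, 11.27 ± 0.02 in control; SD, n = 3) and Ppn (11.12 ± 0.07 and 10.95 ± 0.16) were among the bright signals. Other markers of mature plasmatocytes, NimC1, crq and Sr-CI, lay within the background range in both groups, as did the neuronal gene elav and the germ line gene osk. Not all markers of other cell types did. The neuronal gene brp (7.62 after E2F2 knockdown, 7.52 in control) and the germ line gene nanos (7.45 and 7.50) lay above that range.

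The targeted transcript was reduced in every E2F2 array. The signal of E2f2 was 6.22, 6.55 and 6.17 after E2F2 knockdown, against 8.75, 8.81 and 8.51 in control. This is a difference of -2.37 (standard error, SE, 0.088; adjusted p = 4.33e-19), which leaves 19.3% of the control level. The E2F2 array signals of 6.22 and 6.17 lie within the background range, so the share left may be lower than this. In the arrays of the 8 other knockdowns E2f2 stayed between 8.42 and 8.81. Of the 6393 genes tested it was the 1 called at least 2-fold lower (0.0156%).

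The other members of the complex changed little at the RNA level. Of the 10 measured genes on the list of dREAM subunits and E2F or RB partners, 2 were called higher and 1, E2f2, lower; after quantile normalization 2 were higher and 4 lower. Rbf2, an RB-family partner of E2F2, averaged 7.72 ± 0.07 after E2F2 knockdown and 7.54 ± 0.04 in control (difference 0.19, adjusted p = 0.0154). The chromatin protein gene l(3)mbt averaged 6.97 ± 0.05 and 6.73 ± 0.11 (difference 0.24, adjusted p = 0.0142). Both small differences missed the threshold when single arrays were left out, with adjusted p up to 0.0729 for Rbf2 and 0.11 for l(3)mbt. The dimer partner Dp (difference 0.19), the activator E2f1 (0.18), mip120 (0.17), mip130 (0.15), the gene of the histone-binding subunit (-0.06), lin-52 (-0.16) and mip40 (-0.18) were not called. Rbf lay within the background range in both groups, and Myb is not analysed here.

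After E2F2 knockdown many transcripts differed from control by small amounts and few by large ones. In all, 1987 of 7794 probe sets were called (25.5%), with 1276 higher (16.4%) and 711 lower (9.12%) after E2F2 knockdown. Counted as genes, 1021 of 6393 were higher (16.0%) and 583 lower (9.12%). The median size of a called rise was 0.33 and that of a called fall -0.22. Called rises of at least 0.5 numbered 213 probe sets and called falls of that size 23. At the 2-fold level there were 22 probe sets higher (0.282%) and 1 lower (0.0128%). Rises thus outnumbered falls most among the larger differences. Without control replicate 3 there were 974 rises and 504 falls, and without E2F2 replicates 1 and 3 in turn the falls numbered 409 and 389. The split of all calls depended on how the arrays were scaled: 64.2% of calls were rises with the values as deposited, 50.5% after quantile normalization and 76.9% after centring each array on its median, while the median difference over all tested probe sets moved only between -0.03 and 0.02. All 236 called probe sets with a difference of at least 0.5 were called in the same direction after quantile normalization. The median difference varied with the level: it was 0.049 among the 69 probe sets with a mean below 6, -0.04 among the 2338 between 6 and 7, and 0.056 among the 1021 at 9 or more. After quantile normalization, which equalizes the signal ranges, these medians were 0.079, -0.029 and -0.02.

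**Figure D1:**
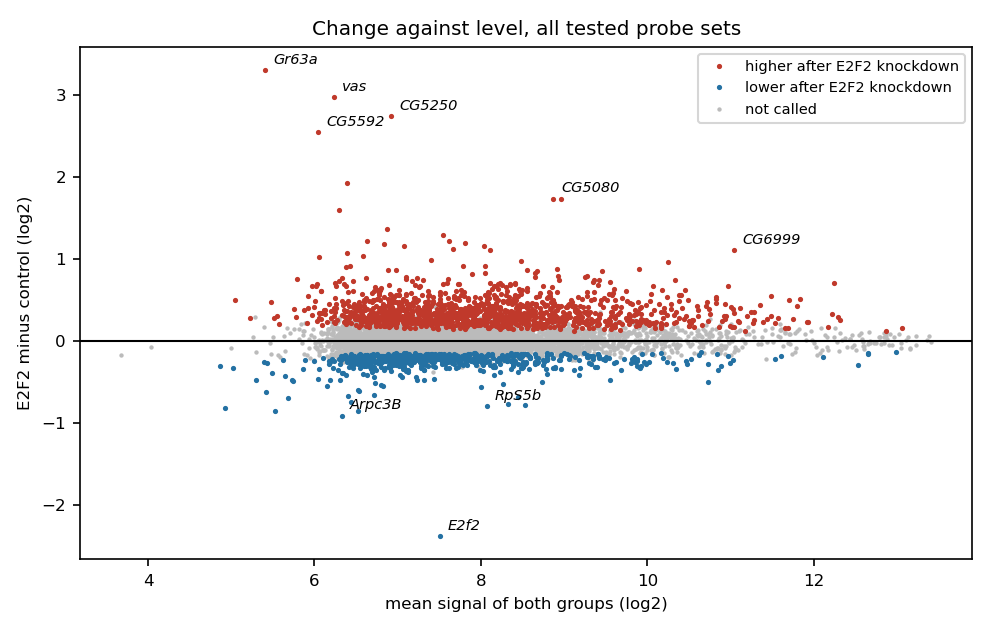
Difference between E2F2 knockdown and control (log2, vertical axis) against the mean signal of both groups (log2, horizontal axis) for the 7794 tested probe sets; red and blue points were called higher and lower, grey points were not called. Most called differences are small on either side of 0, a small set of genes lies far above it, with Gr63a at 3.3 and vas at 2.97, and E2f2 lies alone at -2.37.

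The largest rises began near the background level. There were 18 genes at least 2-fold higher, and 8 of these had a control mean within the background range. Gr63a, a gustatory receptor that forms the carbon dioxide receptor of the antenna together with Gr21a, had 6.97, 7.10 and 7.10 after E2F2 knockdown, against 3.55, 3.87 and 3.84 in control. Its rise of 3.3 (SE 0.118, adjusted p = 2.16e-19) corresponds to at least 9.85-fold. Its partner Gr21a did not rise: it averaged 6.86 after E2F2 knockdown and 7.12 in control, a difference of -0.26 whose adjusted p of 0.0155 reached 0.0781 with single arrays left out.

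The germ line gene vas encodes the RNA helicase Vasa, a defining germ cell protein. Its signal was 7.70, 7.72 and 7.75 after E2F2 knockdown, against 4.85, 4.59 and 4.80 in control, a rise of 2.97 (SE 0.126, adjusted p = 1.08e-17). CG5250 had 8.24, 8.38 and 8.26 after E2F2 knockdown, against 5.31, 5.53 and 5.83 in control (rise 2.74, SE 0.109). CG5592 had 7.41, 7.20 and 7.33 after E2F2 knockdown, against 4.86, 4.64 and 4.81 in control (rise 2.54, SE 0.0846). In each of these 4 genes the arrays of the groups lay more than 2 log2 units apart. CG5592 and 3 further genes of this set, CG15130, Ptp52F and l(3)neo43, fell outside the naming rule because their E2F2 mean was below the median of all tested values, 7.46, and were named after their values were seen.

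Other rises began from a level well above background. CG5080 had 9.71, 9.76 and 9.73 after E2F2 knockdown, against 8.13, 7.93 and 7.93 in control (rise 1.74, SE 0.0856). CG7997 had 9.86, 9.81 and 9.81, against 7.98, 8.13 and 8.17 in control (rise 1.73, SE 0.0704). The brightest of the set was CG6999, with 11.60, 11.55 and 11.66 after E2F2 knockdown and 10.45, 10.51 and 10.52 in control (rise 1.11, SE 0.0826). Each of these genes was thus already transcribed in control cells and increased between 2.16-fold and 3.33-fold.

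The other genes of the set rose by 1.07 to 1.59. Acbp6, of the acyl-CoA binding protein family, averaged 7.55 after E2F2 knockdown and 6.19 in control (rise 1.36). CROT, an enzyme that joins medium-chain fatty acids to carnitine, averaged 7.65 and 6.49 (rise 1.16). Taz, the fly tafazzin that remodels the mitochondrial lipid cardiolipin, averaged 8.67 and 7.56 (rise 1.11). Rises of 1.29 in qtc, known for its role in male courtship, 1.22 in the receptor tyrosine phosphatase gene Ptp52F and 1.19 in Rpt3R, a testis relative of a proteasome ATPase, were of similar size. CG15130 (1.59), CG13084 (1.22), CG3163 (1.16), CG9184 (1.13) and l(3)neo43 (1.07) completed the 2-fold set. The control means of Acbp6 (6.19), CG15130 (5.50), Ptp52F (6.02) and l(3)neo43 (5.85) lay within the background range. Their rises are therefore lower bounds. Just below 2-fold were CG2887 (0.98) and Nmda1 (0.97). The 3 E2F2 arrays of all these genes lay above the 3 control arrays, as they did or did the reverse for 43.9% of tested probe sets.

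**Figure D2:**
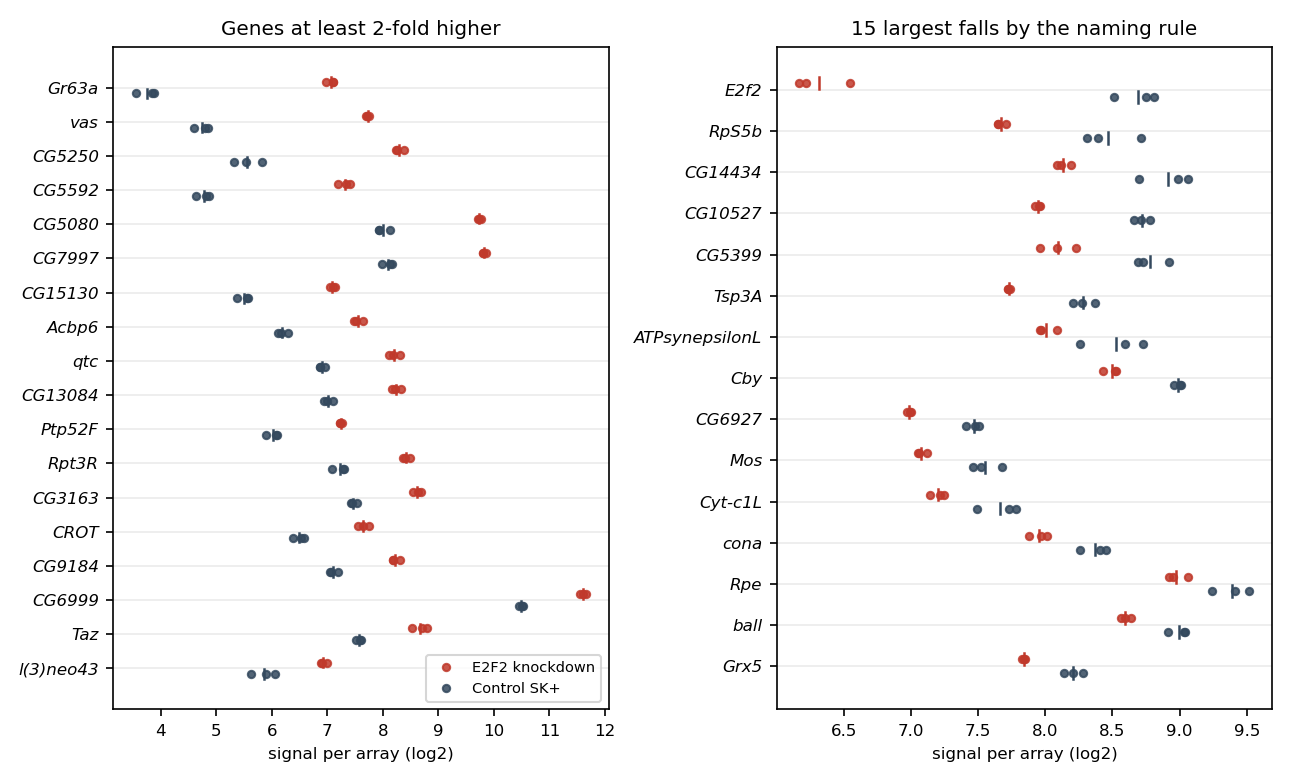
Signal per array (log2) of the 18 genes at least 2-fold higher after E2F2 knockdown (left) and of the 15 largest falls taken by the naming rule (right); red points are the 3 E2F2 arrays, dark points the 3 control arrays, and ticks mark group means. The 2 groups do not overlap in any gene shown, which the naming rule required of the falls and which held for 43.9% of tested probe sets. Apart from E2f2 the falls, down to -0.79, are smaller than the rises on the left.

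Falls were smaller. After E2f2 itself, the largest fall under the naming rule was in RpS5b, a ribosomal protein gene used mainly in the germ line: 7.71, 7.65 and 7.65 after E2F2 knockdown, against 8.39, 8.31 and 8.71 in control (difference -0.79, SE 0.0979, adjusted p = 5.65e-07). CG14434 had 8.09, 8.12 and 8.19, against 9.06, 8.99 and 8.70 in control (difference -0.78). CG10527 had 7.92, 7.96 and 7.95, against 8.78, 8.71 and 8.66 in control (difference -0.77). These 3 falls were larger than the spread of either group, and without control replicate 3 the first became -0.67 and the second -0.89. CG5399 fell by 0.68, the tetraspanin gene Tsp3A by 0.56, ATPsynepsilonL, a relative of an ATP synthase subunit, by 0.52, Cby, the fly Chibby, by 0.50, Mos, a kinase of meiosis, by 0.48, and Cyt-c1L, a relative of cytochrome c1, by 0.46. The smallest of the 15 was a fall by 0.37 in the glutaredoxin gene Grx5. At lower levels, Arpc3B, a relative of an actin-nucleating Arp2/3 subunit, had 5.97, 5.89 and 5.75 after E2F2 knockdown and 6.92, 6.88 and 6.55 in control, a difference of -0.91 that ends within the background range. The virus-induced gene vir-1 had 6.28, 6.03 and 5.89, against 6.76, 6.80 and 6.85 in control (difference -0.74), and its E2F2 mean of 6.06 also lies in that range.

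Germ line genes moved in both directions. Of the 28 measured genes of the germ line and piRNA list, 10 were called higher (35.7%, against 16.0% of all genes tested) and 4 lower (14.3%, against 9.12%). The median difference of the list was 0.10, against -0.01 over all genes. Next to vas, the largest rise was in Gasz, a mitochondrial scaffold protein of the piRNA pathway, which silences transposons. Gasz had 7.42, 7.39 and 7.43 after E2F2 knockdown, against 6.77, 6.54 and 6.32 in control (rise 0.87, SE 0.105, adjusted p = 4e-07). The piRNA helicase gene spn-E, named after its value was seen, averaged 7.38 and 6.81 (rise 0.57). Other piRNA genes did not pass the test: aub differed by -0.02, armi by 0.10 and tud by 0.23. Among the falls, bam, the switch gene of germ cell differentiation, had 5.97, 6.06 and 6.18 after E2F2 knockdown, against 7.14, 6.89 and 6.19 in control. Its E2F2 mean of 6.07 lies within the background range. The groups all but meet at control replicate 3, and the difference of -0.67 became -0.95 without it; without control replicate 1 it missed the threshold (adjusted p = 0.0528). Both means of swa, which localises bicoid RNA in the egg, lay within the background range (4.51 and 5.33), so its difference of -0.82 bounds nothing. Of the germ line markers, osk stayed at background and nanos did not pass the test (difference -0.04). Without E2F2 replicate 3 the list had 6 genes higher, and without control replicate 3 it had 9.

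Meiosis genes and tissue-specific gene copies also moved in both directions, beside 16.0% higher and 9.12% lower over all genes. Meiosis genes were called higher for 3 of 8 and lower for 2, with 1 lower without E2F2 replicate 3 or control replicate 3. bol, the fly boule, rose by 0.37, achi, which acts in spermatocyte transcription, by 0.33, and its partner topi by 0.26, while cona, part of the synaptonemal complex, fell by 0.42. Of 15 measured testis or tissue paralogs of housekeeping genes, 2 were called higher and 7 lower (46.7%), with a median of -0.08. The rises were Rpt3R and RpS19b (0.34), and the falls included Arpc3B, RpS5b and ATPsynepsilonL. The list also held alphaTub84D, CycB3, mRpL10 and Paics, which are not restricted to one tissue; of these alphaTub84D was among the falls, with a difference of -0.36. Chemoreceptor and odorant binding genes, the list that holds Gr63a, had 1 of 9 higher and 2 lower, with 0 lower without E2F2 replicate 2, E2F2 replicate 3 or control replicate 3 and 1 without control replicate 2. Photoreceptor genes had 1 of 8 higher and 1 lower, and 0 in both directions without control replicate 3.

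The called genes of the hemocyte and extracellular matrix lists were all higher as deposited. Of 18 measured hemocyte genes 9 were called higher and 0 lower, with a median of 0.20, and of 23 basement membrane and matrix genes 10 were called higher (43.5%) and 0 lower, with a median of 0.14. Over all genes tested 16.0% were higher and 9.12% lower, with a median of -0.01. The lists share Pxn, Ppn and Col4a1. Pxn encodes peroxidasin, an enzyme that crosslinks collagen IV. It had 10.69, 10.59 and 10.84 after E2F2 knockdown, against 10.21, 10.03 and 9.65 in control (rise 0.74, SE 0.132, adjusted p = 0.000115). The blood cell GATA factor gene srp had 8.64, 8.46 and 8.56, against 8.06, 8.11 and 7.41 in control (rise 0.69). In both genes control replicate 3 was the lowest array, and without it the rises were 0.58 and 0.46, still called. Laminin chain gene LanB1 rose by 0.64, LanA by 0.41 and LanB2 by 0.28, the integrin ligand gene Tig (tiggrin) by 0.66, and Nplp2 by 0.70. Collagen IV itself did not pass the test: Col4a1 differed by -0.02 and vkg by 0.14. SPARC (0.08) and Ppn (0.17) did not pass either, so the rises included laminins, Pxn and Tig but not every matrix gene. After quantile normalization 7 hemocyte genes were higher and 1 lower, and 9 matrix genes higher and 1 lower; without control replicate 3 the counts were 8 and 9 higher with 0 lower in both lists. The phagocytic receptor gene eater rose by 0.75 with both means in the background range.

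Genes of DNA replication and mitosis, the best known E2F targets, stayed close to control. Of 19 measured MCM helicase and origin genes 2 were called higher and 0 lower, with a median of 0.01. Those were Mcm6, a subunit of the replicative helicase, with 7.97, 8.13 and 8.10 after E2F2 knockdown against 7.74, 7.82 and 7.61 in control (rise 0.34), and dup, the licensing factor Cdt1 (rise 0.33). Of 24 replication fork and nucleotide supply genes 3 were called higher and 1 lower, with a median of 0.00; after quantile normalization 2 were higher and 5 lower. Among 29 mitosis genes 5 were higher and 1 lower, with a median of 0.05; the largest rise was in fzy, the fly Cdc20, with 9.07, 9.04 and 9.14 against 8.47, 8.47 and 8.30 in control (rise 0.67, adjusted p = 2.45e-06). The shares called higher lay near or below the 16.0% of all genes, at 10.5% for the MCM and origin list and 12.5% for the fork list. Without E2F2 replicate 3 or control replicate 3 the mitosis list had 2 genes higher. Of 5 measured G1 and S phase regulators, Cdk2 alone was called, with a difference of -0.34. The DNA damage list had 4 of 21 genes higher, led by the ATM kinase gene tefu (rise 0.60), and 2 lower; 2 were higher without E2F2 replicate 1, E2F2 replicate 3 or control replicate 3. After quantile normalization this list had 2 higher and 4 lower. Centrosome and centriole genes had 3 of 21 higher and 3 lower, with 1 higher without E2F2 replicate 2, E2F2 replicate 3 or control replicate 1.

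In the apoptosis and JNK, RNA interference, glycolytic, oxidative stress and heat shock lists every called gene was higher as deposited. Over all genes tested 16.0% were called higher and 9.12% lower. All 5 called genes of 13 in the apoptosis and JNK list were higher, among them puc, the phosphatase that dampens JNK (rise 0.45), the JNK gene bsk (0.39), kay, the fly Fos (0.38), and Dark, the apoptosome scaffold (0.27). Of 13 RNA interference genes 6 were higher and 0 lower: the antiviral gene pst (0.55), gw, which acts in microRNA silencing (0.48), vig (0.39), Dcr-2, the dicer of small interfering RNAs (0.34), r2d2 (0.29) and Tudor-SN (0.20). Without E2F2 replicate 3 the list had 3 genes higher, and pst (adjusted p = 0.054) and Dcr-2 (0.057) were not called. Both groups had received RNA for interference. Glycolytic and related genes were higher for 5 of 12, led by Pepck1, the enzyme that commits carbon to glucose synthesis, with 8.56, 8.47 and 8.45 against 7.67, 7.86 and 7.93 in control (rise 0.67); without E2F2 replicate 1 or control replicate 1 the count was 3. Of 21 oxidative stress and metal genes 6 were higher, including the ferritin subunit gene Fer2LCH (0.68), the Nrf2 homolog gene cnc (0.51) and catalase, Cat (0.50). Of 21 heat shock and chaperone genes 6 were higher, led by Hsf (0.46), DnaJ-1 (0.45) and Gp93 (0.36). These last 2 lists had 0 genes lower as deposited but 4 and 3 lower, with 4 and 3 higher, after quantile normalization, so their direction as groups depends on the scaling. The heat shock count was 3 without any 1 of the E2F2 arrays.

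With all arrays and the values as deposited, mitochondrial ribosomal protein genes had a larger share of called falls than all genes tested. Of 60 measured, 18 were called lower, against 9.12% of all genes, and 1 higher, with a median of -0.14. The falls were small: mRpL20 differed by -0.32, mRpL2 by -0.28 and mRpL51 by -0.28, while mRpL33 was the exception with a rise of 0.42. The count of falls was 6 without E2F2 replicate 1 or control replicate 1, 9 without E2F2 replicate 3 or control replicate 2, 22 without control replicate 3, 32 after quantile normalization and 9 after median centring. Complex I genes showed 5 of 25 lower and 1 higher, with a median of -0.04, and complex II to V genes 2 of 26 lower and 4 higher, which became 9 lower and 2 higher after quantile normalization. The complex I falls numbered 2 and 3 without E2F2 replicates 1 and 2, and 1 and 3 without control replicates 1 and 2, and the complex II to V rises numbered 2 without E2F2 replicate 3 or control replicate 3. The complex II to V falls numbered 0 without E2F2 replicate 1, control replicate 1 or control replicate 2 and 1 when any other single array was left out. The proteasome list had 4 of 26 lower and 2 higher as deposited, and 15 lower and 1 higher after quantile normalization; its falls numbered 0 without E2F2 replicate 1 or control replicate 2 and 1 without E2F2 replicates 2 or 3 or control replicate 1. Ribosomal proteins of the cytosol had 0 of 26 higher and 2 lower as deposited, and 1 higher and 6 lower after quantile normalization.

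**Figure D3:**
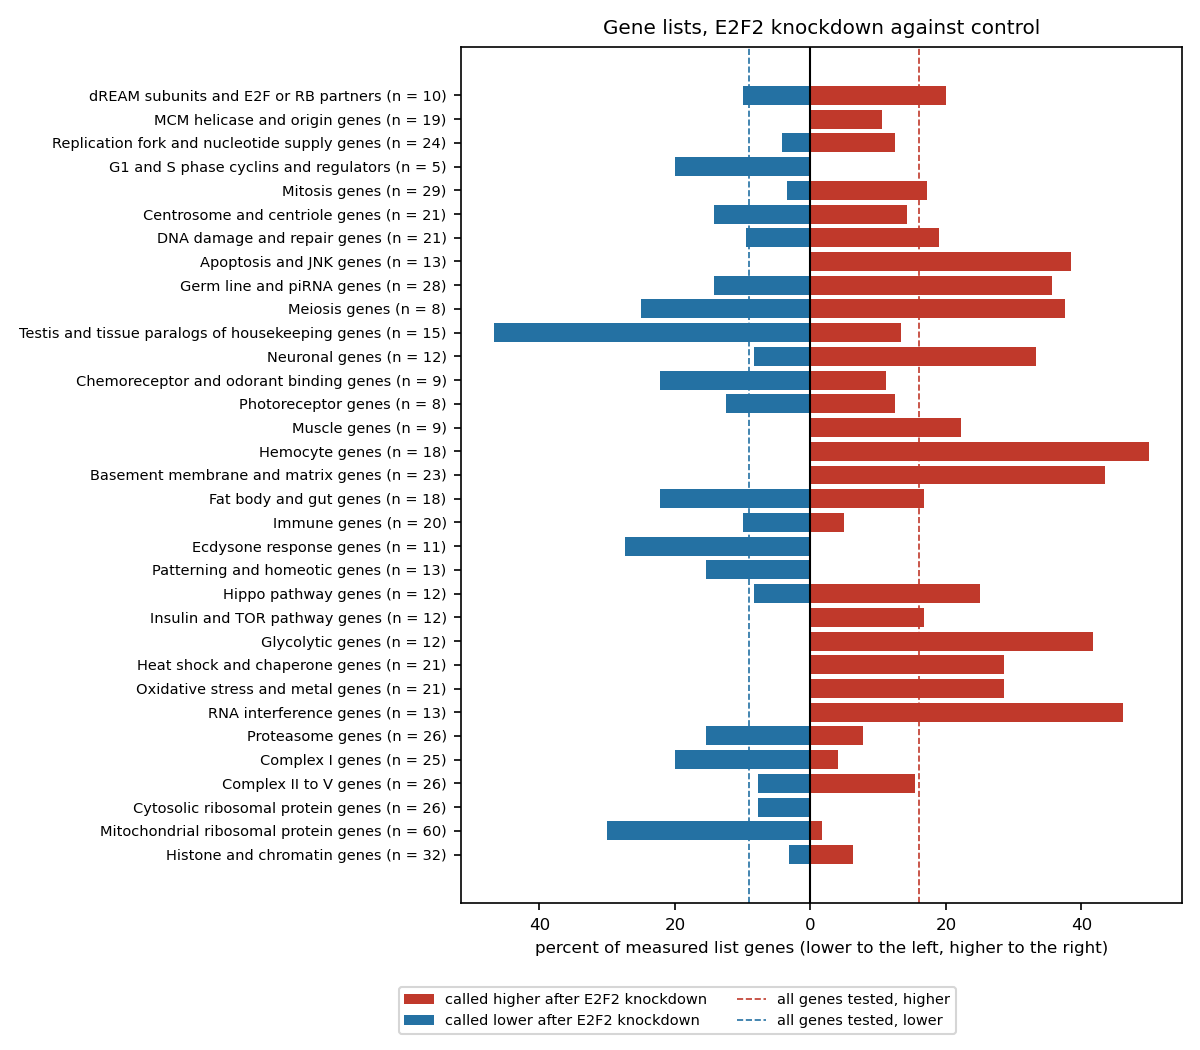
Share of the measured genes of each list called higher (red, to the right) and lower (blue, to the left) after E2F2 knockdown, in percent of the genes measured; dashed lines mark the shares over all 6393 genes tested, 16.0% higher and 9.12% lower. Hemocyte genes have 9 of 18 higher and mitochondrial ribosomal protein genes 18 of 60 lower, while the MCM list stays at 10.5% higher.

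The shares called in the remaining lists lay on either side of the 16.0% higher and 9.12% lower over all genes. Fat body and gut genes had 3 of 18 higher and 4 lower, with 2 lower without E2F2 replicate 2 and 1 lower without E2F2 replicate 3, control replicate 1 or control replicate 3; the rises included the fatty acid synthase gene FASN1 (0.74) and the lipase gene bmm (0.49). Neuronal genes had 4 of 12 higher (33.3%) and 1 lower, immune genes 1 of 20 higher (5.0%) and 2 lower, and ecdysone response genes 0 of 11 higher and 3 lower (27.3%). The ecdysone falls numbered 1 without E2F2 replicate 2, E2F2 replicate 3 or control replicate 3, and the immune falls 0 without E2F2 replicate 3. Of 13 patterning and homeotic genes 0 were higher and 2 lower, with 0 lower without E2F2 replicate 3 or control replicate 3, and of 9 muscle genes 2 were higher. Histone and chromatin genes had 2 of 32 higher and 1 lower. In the Hippo pathway 3 of 12 genes were higher and 1 lower, and 2 of 12 insulin and TOR pathway genes were higher.

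The other knockdowns were compared at the level of single genes. The signal of Gr63a was 6.97 to 7.10 after E2F2 knockdown, 6.11 to 6.36 after RBFs knockdown and 6.66 to 6.95 after Mip120 knockdown, with a mean of 6.71 after Mip130 knockdown. It stayed between 3.36 and 4.43 after Mip40, Lin-52, Myb, L(3)MBT and E2F1 knockdown, near the control range of 3.55 to 3.87. CG5250 had the same division, with 7.48 to 8.44 in the first 4 groups and 5.07 to 6.16 in all others. vas also reached 7.09 to 8.05 in those 4 groups but had intermediate levels after Lin-52 (6.10 to 6.47), Mip40 (5.41 to 5.78) and L(3)MBT knockdown (5.30 to 5.43). CG5080 and CG7997 divided otherwise: they were higher than control in every knockdown except Myb, with CG5080 at 9.79 to 9.84 after E2F1 knockdown and 7.58 to 7.88 after Myb knockdown, against 7.93 to 8.13 in control. CROT was high after E2F2 (7.55 to 7.75), E2F1 (7.81 to 8.04) and L(3)MBT knockdown (7.87 to 7.92) and low after Mip130, Mip120, Mip40, Lin-52 and Myb knockdown (5.12 to 5.69), against 6.38 to 6.57 in control.

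A few genes were at their highest or lowest after E2F2 knockdown. Pxn reached 10.59 to 10.84 there, while in the other 8 knockdowns it lay between 7.21 and 9.64, against 9.65 to 10.21 in control. Tig had 9.08 to 9.29 after E2F2 knockdown, against 6.51 to 8.81 in all other groups. The chaperone gene Gp93 (11.43 to 11.52, against at most 11.13 elsewhere) and CG2930 (10.23 to 10.41, against at most 9.75 elsewhere) followed the same order. Arpc3B was at its lowest after E2F2 knockdown, 5.75 to 5.97, while it lay between 8.41 and 9.01 after Mip130, Mip120, Mip40 and Myb knockdown and at 6.55 to 6.92 in control. RpS5b was also lowest after E2F2 knockdown (7.65 to 7.71) and highest after L(3)MBT knockdown (10.94 to 11.03), against 8.31 to 8.71 in control.

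**Figure D4:**
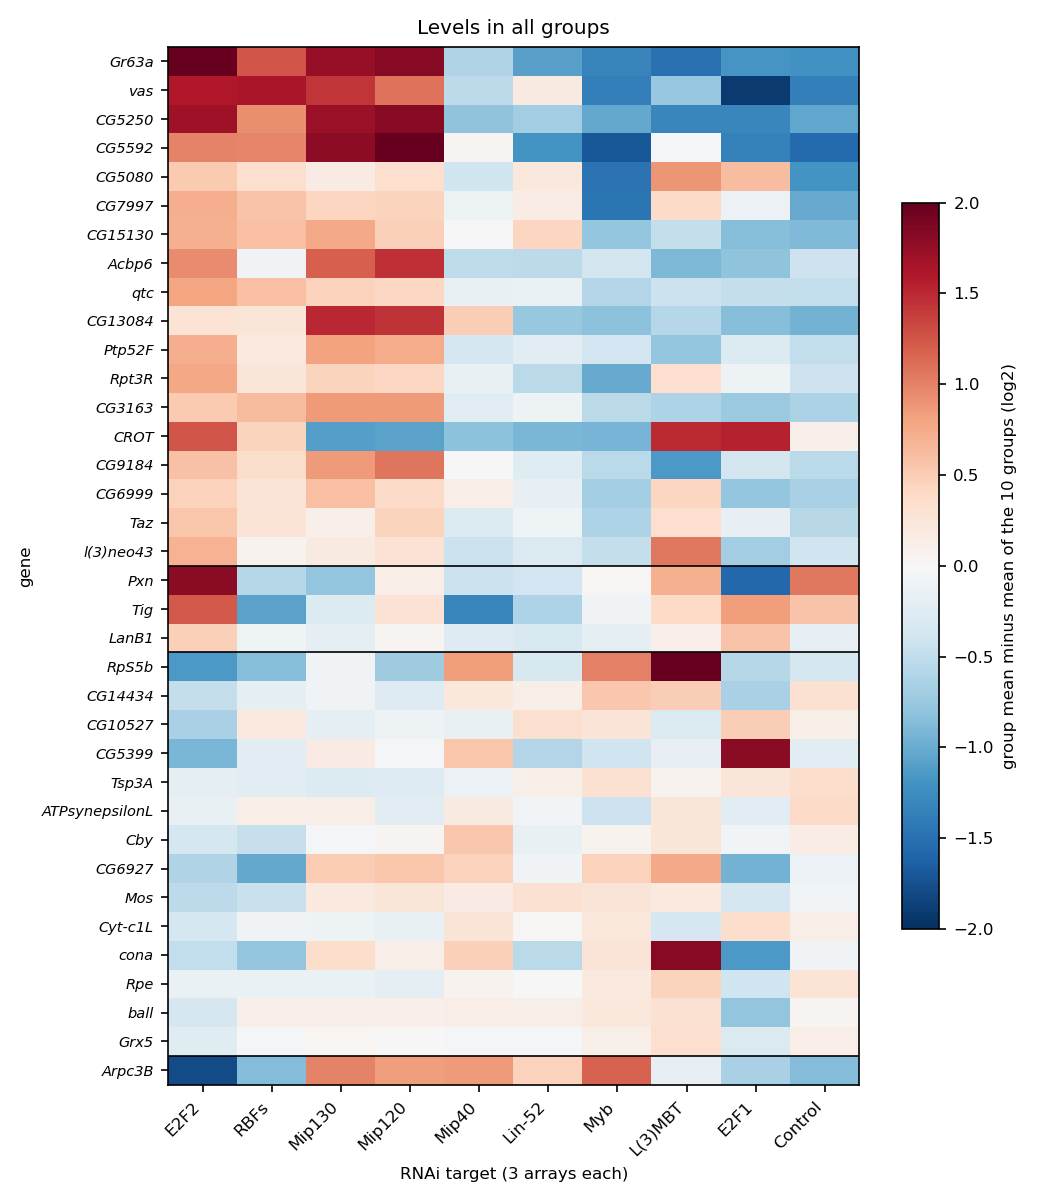
Group mean signal of each gene minus its mean over the 10 groups (log2, 3 arrays a group; red above, blue below, colours end at 2 and -2), with the RNAi targets in columns and genes in rows: the 18 genes at least 2-fold higher after E2F2 knockdown, then Pxn, Tig and LanB1, then the falls and Arpc3B. Gr63a, vas, CG5250 and CG5592 are red after E2F2, RBFs, Mip130 and Mip120 knockdown and blue after Myb and E2F1 knockdown and in control.

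Direct comparisons between knockdowns leave the control arrays out but share the E2F2 arrays. Genes picked as higher than control in those arrays are therefore favoured to be higher in each of these comparisons too. Counts among such genes are no separate support. Transcripts targeted in the other knockdowns were higher after E2F2 knockdown: Rbf2 by 0.63 relative to RBFs knockdown, E2f1 by 1.40 relative to E2F1 knockdown, and mip130 by 0.64 relative to Mip130 knockdown. Rbf2 was also higher by 0.98 relative to E2F1 knockdown, and Rbf, the other RBFs target, lay in the background range in E2F2 and control arrays and checks nothing. Against RBFs knockdown, 1941 probe sets were called (24.9%), with 985 genes higher (15.4%) and 616 lower (9.64%) after E2F2 knockdown. The call count was 1234 without E2F2 replicate 3 and 1185 without RBFs replicate 3. Of the 18 genes at least 2-fold above control, 8 were higher and 0 lower. The levels of vas (difference -0.02), CG5592 (0.03), CG13084 (0.04) and CG15130 (0.10) were not called different, with SEs from 0.0751 to 0.126 for these 4 genes. Gr63a was higher by 0.84 (SE 0.118), Acbp6 by 1.02 and CG5250 by 0.77. Some matrix genes differed more. Pxn had a mean of 10.71 after E2F2 and 8.34 after RBFs knockdown (difference 2.37, SE 0.132, adjusted p = 1.61e-14). Tig averaged 9.18 and 6.87 (2.31), and Glt, the matrix protein glutactin, 8.97 and 7.19 (1.78). In control Pxn averaged 9.96, Tig 8.52 and Glt 8.43, so these genes were also lower after RBFs knockdown than in control. Of the 23 matrix genes 14 were higher and 2 lower after E2F2 knockdown, with a median of 0.37 against a median of 0.00 over all genes. The virus-induced gene vir-1 averaged 6.06, within the background range, and 7.98 (difference -1.92). MCM and origin genes were higher for 0 and lower for 3 of 19, and mitosis genes higher for 5 and lower for 4 of 29. Over all genes tested 15.4% were higher and 9.64% lower in this comparison.

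Of the 3 direct comparisons, that between the E2F knockdowns had the most calls. Against E2F1 knockdown 4133 probe sets were called (53.0%), with 2015 genes higher (31.5%) and 1399 lower (21.9%) after E2F2 knockdown. All 24 replication fork genes were higher, with a median of 1.07. So were 18 of 19 MCM and origin genes (median 0.81) and 28 of 29 mitosis genes (median 0.71), with 0 lower in each list, against a median of 0.03 over all genes. For Mcm6 the mean was 8.07 after E2F2 and 6.64 after E2F1 knockdown (difference 1.43), and for PolA1, the catalytic subunit of DNA polymerase alpha, 8.96 and 7.90 (1.06). Of the 18 genes at least 2-fold higher than control after E2F2 knockdown, 16 were also higher than after E2F1 knockdown: vas by 3.51 (SE 0.126), Gr63a by 3.26 and CG5250 by 2.99. The other 2 were CG5080 (difference -0.08) and CROT (-0.28). Genes lower after E2F2 than after E2F1 knockdown included vir-1, with means of 6.06, at background, and 9.83 (difference -3.77), CG5399 with 8.10 and 10.81 (-2.72), and 9 of 12 glycolytic genes (median -0.36). Oxidative stress and metal genes were lower for 12 of 21 and higher for 3.

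Mip130 belongs to the core of the complex. Against its knockdown 2614 probe sets were called (33.5%), with 1312 genes higher (20.5%) and 815 lower (12.7%) after E2F2 knockdown. Of the 18 genes at least 2-fold above control, 8 were higher and 5 lower after E2F2 knockdown. CG5250 (difference -0.02), vas (0.18), Ptp52F (-0.08) and CG15130 (-0.06) did not pass the test, while CG13084 was lower by 1.23 after E2F2 knockdown, at a mean of 8.23 against 9.46. A second set of genes parted the groups. Arpc3B averaged 5.87 after E2F2 and 8.65 after Mip130 knockdown (difference -2.78, SE 0.116, adjusted p = 7.6e-18). hdm, a meiotic recombination gene, averaged 5.50 and 7.79 (-2.29), and swa 4.51 and 6.75 (-2.24). The E2F2 means of these 3 genes lie within the background range. In contrast, Pxn averaged 10.71 and 8.11 (2.59), CROT 7.65 and 5.29 (2.36) and Tig 9.18 and 7.68 (1.49). In control Pxn averaged 9.96, CROT 6.49 and Tig 8.52, so these genes were also lower after Mip130 knockdown than in control. Mitosis genes were higher after E2F2 knockdown for 21 of 29 and lower for 0, with a median of 0.34, against a median of 0.00 over all genes. Matrix genes were higher for 15 of 23, hemocyte genes for 10 of 18 and RNA interference genes for 9 of 13, with 2, 1 and 1 lower.

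**Figure D5:**
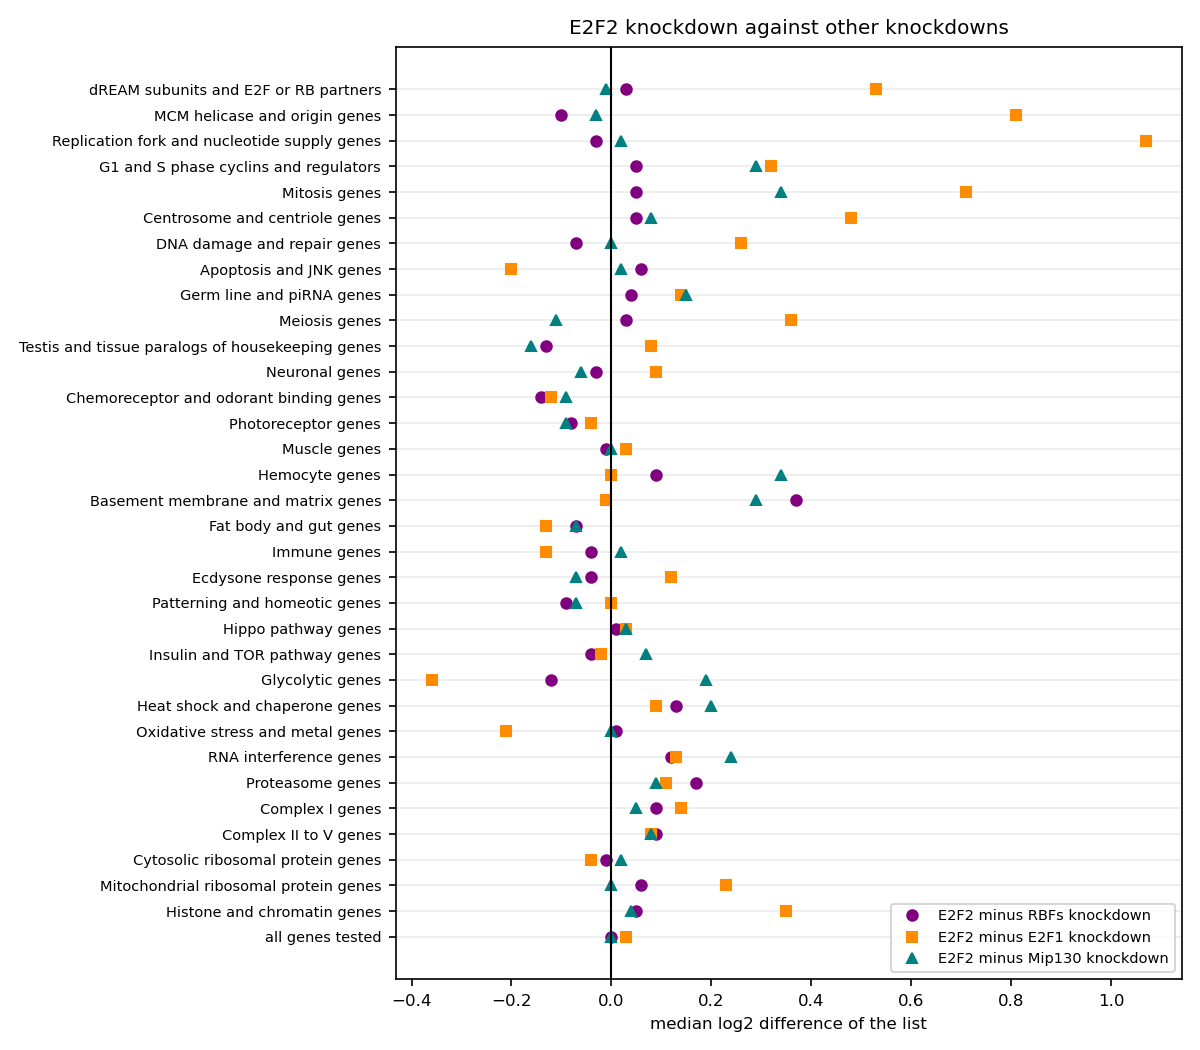
Median log2 difference of each gene list between E2F2 knockdown and the knockdown of both RBFs (purple circles), E2F1 (orange squares) and Mip130 (teal triangles), with all genes tested in the lowest row. Replication fork genes stand at 1.07 and mitosis genes at 0.71 against E2F1 knockdown, and mitosis genes at 0.34 against Mip130 knockdown.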

How the data were processed

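The deposited table holds log2 values, 1 per probe set and array (14010 probe sets, 30 arrays, from 1.949 to 13.597). The log base was read from the range and is not given by the labels. GCOS 1.2.0 is listed in the submitters' processing notes. How the authors normalized and summarized the probes is not given in the sources used here. Per the labels, labelled RNA was made from 10 micrograms of total RNA. The number of arrays limits the precision.

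Values were used as deposited and 44 control probe sets were left out. Group means of all 30 arrays were fitted in limma 3.58.1 under R 4.3.3 (eBayes allowing the variance to follow the mean signal; 20 degrees of freedom remained), with contrasts of E2F2 minus control, RBFs, E2F1 and Mip130. Each contrast had its own Benjamini-Hochberg adjustment of the two-sided p-values. Tables and figures used Python 3.11.15, pandas 2.3.3, numpy 2.4.6 and matplotlib 3.10.9. The fit was tested on simulated data. The platform's annotation paired 12443 probe sets with 1 gene, of which 12393 were matched by gene ID to RefSeq symbols; 327 were paired with several genes, and 1196 had no gene name. Each gene was read by its brightest tested probe set. Replicate numbers were not treated as pairs, since same-numbered E2F2 and control arrays correlated at -0.11, -0.18 and -0.26 after group means were removed.

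The members and all gene lists were chosen with earlier results of these data known, and the lists got no test of their own. A symbol in the germ line list that resolved to a sleep gene and one in the RNA interference list that resolved to a nuclease were removed after their values were seen. Named genes were the dREAM list; the 15 largest rises and 15 largest falls among called genes whose groups do not overlap and whose higher mean was above 7.46; up to 4 called members of each list; and, for each direct contrast, the 4 genes highest and the 4 lowest among those called against control. Other genes are named where the text says so or to give a list's members in full. The planned search of promoter sequences was not run. Alternatives were quantile normalization, median centring, testing all probe sets, a stricter filter (70th percentile), no variance trend, array weights, the 6 arrays alone, a replicate block, each array left out, a 2-fold threshold and 1 probe set per gene; a fit without the L(3)MBT arrays was chosen after seeing the data.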

Additional observations from a re-analysis of the deposited data

Results flagged for a closer look

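Control probe sets for fly genes, printed on the array to judge labelling and left out of all comparisons, carried a signal above control in 7 of 12 cases in the sense that all 3 E2F2 arrays lay above all 3 control arrays; of all tested probe sets, 43.9% did not overlap in one direction or the other. The difference was 0.98 for the middle probe set of 18S ribosomal RNA, 0.31, 0.25 and 0.32 for the GAPDH probe sets at the 3' end, the middle and the 5' end, 0.28 and 0.16 for the actin probe sets at the 3' and 5' end, and 0.13 for the eIF-4a probe set at the 3' end. Over all 12 such probe sets the median difference was 0.26, against -0.10 for the 9 spiked-in transcripts and -0.08 for the 23 probe sets without a target in flies. These differences were not tested, and their part in the small shifts of bright probe sets was not tested.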

How the results depend on the processing

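Of 140 called named genes, 95 stayed called in every alternative fit that held their probe set, and 0 changed sign in any. The filter at the 70th percentile left out the probe sets of some named genes, and 124 were called there. The 2-fold threshold and the run with 1 probe set per gene do not enter the count of 95. The count of 1987 calls against control was 1925 with a replicate block, and the block moved no count of calls by over 1.5 times. The 711 falls became 1079 after quantile normalization, 428 after median centring, 459 with the filter at the 70th percentile and 1211 with array weights. At a 2-fold threshold 23 probe sets were called, 22 higher and 1 lower. With single arrays left out the calls ran from 1326 to 1715 (937 to 1171 higher, 389 to 544 lower, the lowest without E2F2 replicate 3), those within gene lists from 111, without E2F2 replicate 3, to 145 (175 with all arrays) and named genes from 108 to 125. Without control replicate 3 there were 1478 calls. Against RBFs knockdown array weights gave 3010 calls, 1292 of them lower, and leave-one-out counts ran from 1185 to 1954 (784 to 1207 higher, 401 to 747 lower). Against E2F1 knockdown they ran from 3703 to 3955 (2187 to 2351 higher, 1516 to 1604 lower). Against Mip130 knockdown the 995 falls became 1776 without a filter, 545 with the filter at the 70th percentile, 1666 with array weights and 1523 with the 6 arrays alone, and leave-one-out counts ran from 1903 to 2263 (1235 to 1447 higher, 661 to 816 lower, the lowest without E2F2 replicate 3). The cause of these changes was not tested, except that fewer or more probe sets enter with another filter and fewer arrays with one left out. Dim probe sets limit the rest: rises that start within the background range have no measured size.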

Other observations

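Probe sets kept out of the test by their low signal held further calls, most of them falls. In a fit without that filter 617 of these 6172 probe sets were called, against 2402 of all 13966 in the same fit. Of the 617, 399 were lower and 3 were at least 2-fold higher. The 23 control probe sets with no fly target had a median difference of -0.08. Whether a lower background contributed to these falls was not tested. magu, a secreted modulator of BMP signalling, had 6.50, 6.77 and 6.50 after E2F2 knockdown, against 5.24, 5.15 and 5.27 in control (rise 1.37, adjusted p = 4.34e-12). zfh2, a homeodomain transcription factor gene, lay between 5.95 and 6.24 after E2F2 knockdown, against 4.83, 4.81 and 5.19 in control (rise 1.12). Pask, a nutrient-responsive kinase gene, had 5.68, 5.79 and 5.74, against 4.65, 4.75 and 4.77 in control (rise 1.01). The control means of all 3 genes lay within the background range, so the rise of magu is a lower bound; the E2F2 means of zfh2 (6.06) and Pask (5.74) lay in that range too, so theirs bound nothing. These 3 genes were chosen after their values were seen.

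Some genes were read by more than 1 tested probe set. There were 450 such genes, 191 of them with at least 1 called probe set, while 25.5% of all tested probe sets were called. A gene with more probe sets has more occasions for a call. In 134 of the 191 genes every probe set had the same direction, a share for which no baseline was computed. Of 53 genes with at least 2 called probe sets, 6 had calls in opposite directions. The long noncoding RNA lncRNA:CR42862 was higher by 0.87 and 0.72 in its 2 probe sets, and CG34355 was lower by 0.59 and 0.47. The CG34355 probe sets averaged 6.22 and 6.07 after E2F2 knockdown, against 8.21 and 8.13 after Mip130 knockdown and 6.82 and 6.54 in control, so that the 2 knockdowns lay on opposite sides of control. The E2F2 means of both CG34355 probe sets lie within the background range. Both genes were chosen after their values were seen.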
